A study of Mus with 9 samples.

Results

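The 10 genes described here are Cd34, Ly6a, Prom1, Adgrg1, Angpt1, Mecom, Hlf, Erg, Sox4 and Myb, a set of genes that mark blood stem and progenitor cells. They were taken by name from the deposited count table, which held 54532 genes, and all 10 were found and passed the filter on low counts. Levels came from RNA sequencing of 9 libraries of mouse bone marrow cells, with 3 libraries per group (labelled Vec, CCND2wt or CCND2mut). Fetal liver cells were taken at embryonic day 12.5 from mice with a conditional knock-in of AML1-ETO, a leukaemia fusion of the blood transcription factor AML1 with the corepressor-binding protein ETO, here tagged with the red fluorescent protein mCherry. They were infected with the retrovirus MSCV-IRES-EGFP, which carries a green fluorescent reporter, and the mCherry+ GFP+ cells were transplanted with supportive cells into lethally irradiated C57BL/6 mice. The virus was empty for Vec, carried wild-type cyclin D2 for CCND2wt, and carried cyclin D2 with Thr280Ala for CCND2mut. All 3 groups therefore share the AML1-ETO allele, the virus backbone and an irradiated host, and no group without AML1-ETO was analysed here. The age of the hosts, the promoter that switches on the conditional allele, and any sorting of the marrow before RNA extraction are not stated in the labels. The labels do not say that libraries came from separate animals, so that p-values may measure only the spread between these samples.

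Blood is renewed from rare stem cells of the marrow, which give rise to progenitors that lose stem cell genes as they mature. Surface proteins such as CD34 and Sca-1 (encoded by Ly6a) are used to sort these cells, and factors such as Mecom, Hlf, Erg and Myb keep their expression programme going. Angiopoietin-1, the product of Angpt1, is a ligand that stem cells and their niche make for the receptor Tie2. Threonine 280 is the residue whose phosphorylation marks cyclin D2 for destruction.

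The libraries held between 15043755 and 17593634 counts. Some stood apart or went against their labels. Ccnd2 itself was at 76.2 to 86.2 CPM (counts scaled to a common library total) in the Vec libraries, 7.30 to 11.1 in those labelled CCND2wt and 12.6 to 58.2 in those labelled CCND2mut, which goes against the labels if the virus carried mouse Ccnd2. The labels do not state the species of the viral sequence, so that each direction below refers to the libraries as labelled. The CCND2wt libraries were much closer to each other (7.00 to 17.7 chi-square units per gene) than any pair within the other groups (53.3 to 148.3). Vec 1 and CCND2mut 1 stood apart by summed neutrophil markers (9 of 9 detected in each group), with 14020 and 18200 CPM against 134 to 3806 CPM in the other 7 libraries. Where leaving out Vec 1 or CCND2mut 1 ended a call named below, this is said beside it.

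In the libraries labelled CCND2mut, most of the set was low. Against Vec, 7 of the 10 genes fell and 0 rose (edgeR quasi-likelihood test, adjusted p under 0.05), where 51.8% of all 15660 tested genes were called and 26.9% were called lower. Sox4, Hlf, Mecom and Angpt1 fell by 27.1-fold to 147-fold, while Adgrg1, Erg and Myb fell by 2.32-fold to 3.30-fold. The 3 genes without a call were Cd34, Ly6a and Prom1. In bulk samples like these, fewer cells of a type and less RNA per cell cannot be told apart.

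Against CCND2wt, 7 of the 10 genes were lower in CCND2mut and 1, Prom1, was higher. Of these calls, those of Ly6a and Prom1 were lost without CCND2mut 1 and without any single CCND2wt library. Of all tested genes, 47% were called in that comparison, 23.8% lower and 23.2% higher. CCND2wt against Vec showed fewer calls: 0 of the 10 genes were higher and 2, Mecom and Adgrg1, were lower. The background there was 18.8% of tested genes called, 9.71% higher and 9.05% lower, so that 2 of 10 is near it. The 3 comparisons share groups pairwise and are not independent of each other. Median log2 fold changes of the 10 genes were -2.01 for CCND2mut against Vec, -1.36 for CCND2mut against CCND2wt and -0.04 for CCND2wt against Vec, where the medians of all tested genes were -0.03, 0.02 and -0.04.

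**Figure D1:**
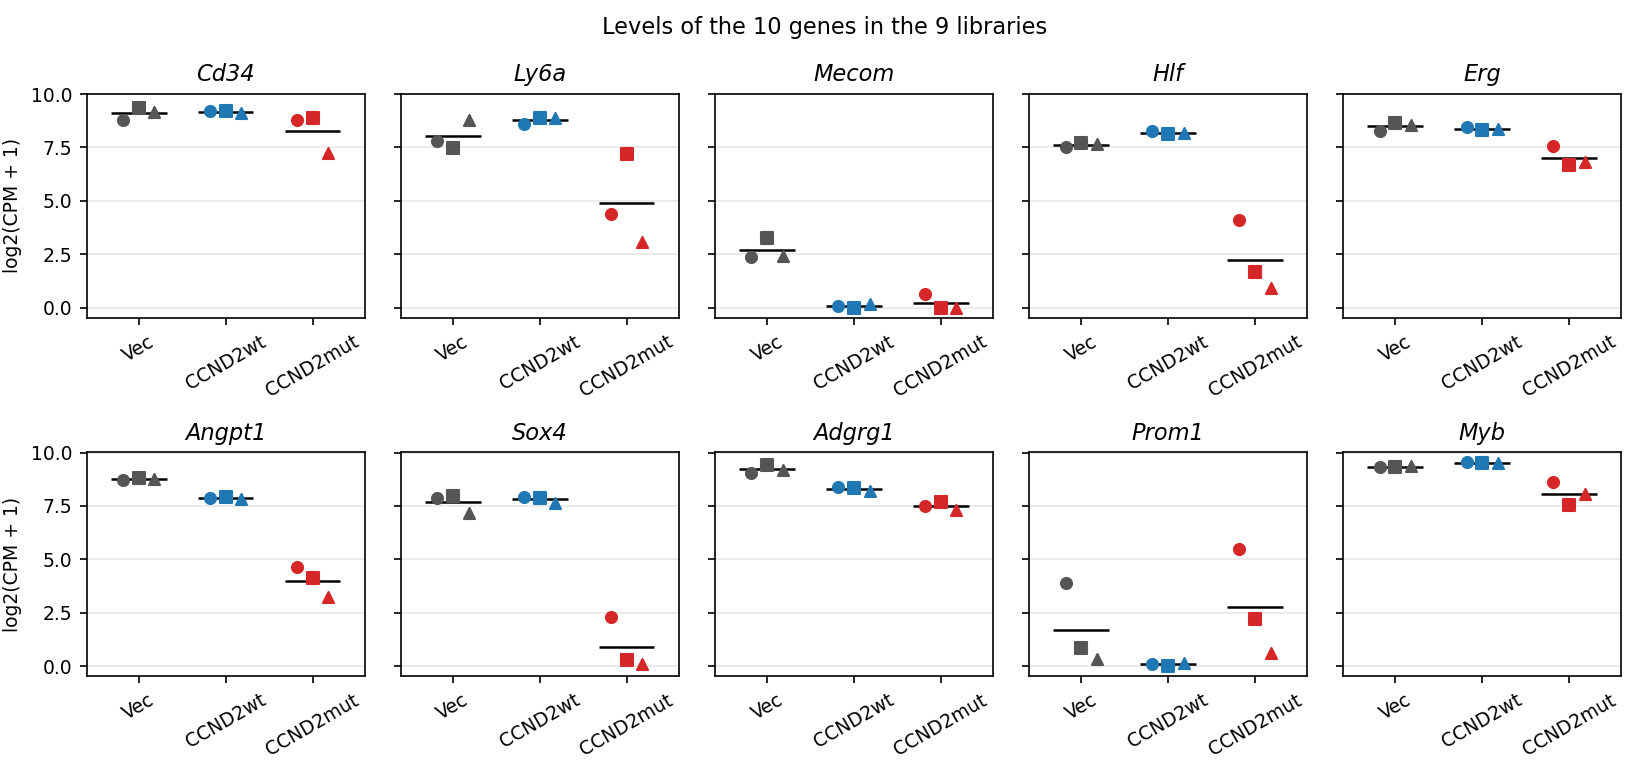
Level of each of the 10 genes in each of the 9 libraries, as log2(CPM + 1), for the Vec, CCND2wt and CCND2mut groups. Circles, squares and triangles are the libraries of a group in order of their number, and the line is the mean of the 3 log2 values. CCND2mut points of Hlf, Angpt1 and Sox4 lie far below those of the other groups, while those of Cd34 reach the Vec points.

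**Figure D2:**
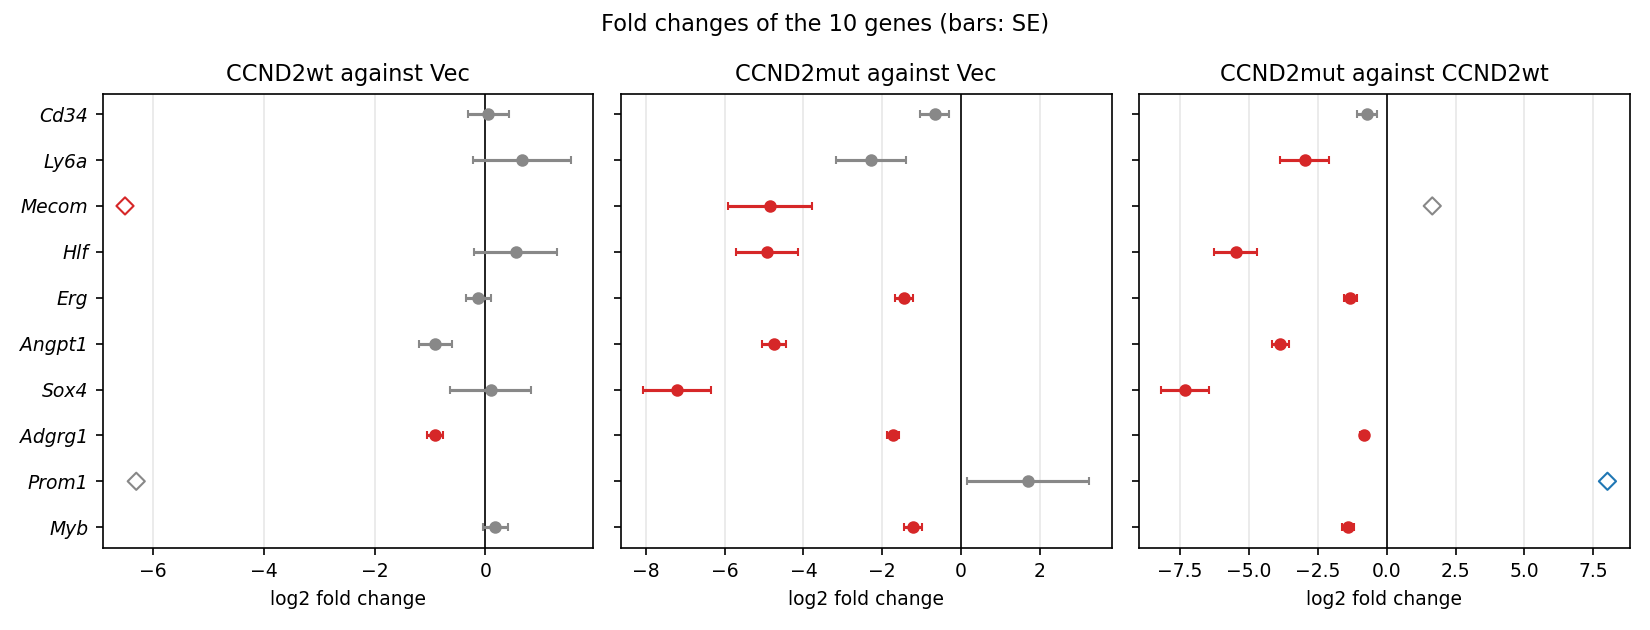
Log2 fold change of each gene in the 3 comparisons, with bars for the standard error of the fitted model. Red marks a gene called lower, blue a gene called higher and grey no call at an edgeR adjusted p of 0.05, and open diamonds mark fits in which a group held 3 or fewer reads. Each panel has its own scale.

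Markers of other blood cells moved between the groups as well, and their part in the results below was not tested. Neutrophil markers summed to 471 to 14020 CPM in Vec, 134 to 242 in CCND2wt and 2741 to 18200 in CCND2mut. In CCND2mut 1, S100a8 and S100a9 made up most of that sum, at 5850 and 7721 CPM. Ltf, Camp, Ngp, Mmp8 and Mmp9 were also highest of the group there, but Cxcr2 and Ly6g were lowest. Cxcr2 was at 100.5 CPM against 242.8 and 154.3 in CCND2mut 2 and 3, and Ly6g at 4.007 against 15.02 and 27.5. Vec 1 also had the highest erythroid, B cell and eosinophil sums of its group. Monocyte and macrophage markers (9 of 9 detected) summed to 51.3 to 248, 41.2 to 43.2 and 247 to 491 CPM in Vec, CCND2wt and CCND2mut. Mast cell and basophil markers (7 of 7 detected) summed to 6925 to 9407 CPM in Vec and 10260 to 10740 in CCND2wt, and in CCND2mut to 1233, 9436 and 2508 CPM. CCND2mut 2 was slightly above the highest Vec library and far above the others of its group. Most of that sum was Cpa3, a mast cell carboxypeptidase also made by progenitors. The mast cell protease genes Mcpt4 and Tpsb2 were at 3.26 to 16.5 and 5.37 to 20.6 CPM in Vec. In CCND2wt they were at 674 to 700.2 and 633 to 667, and in CCND2mut at 31.6 to 258 and 35.0 to 619, highest in CCND2mut 2. The rest of the list had no common direction in CCND2mut. In Vec, Cpa3 was at 6792 to 9057, Fcer1a at 8.39 to 9.37 and Ms4a2 at 26.1 to 82.1 CPM. In CCND2mut 1, 2 and 3, Cpa3 was at 981, 7525 and 1819 CPM. Fcer1a was at 1.76, 10.15 and 0.664 there, and Ms4a2 at 37.7, 154 and 61.8. Mcpt8 was at 146, 858 and 534 against 88.35 to 219 in Vec, and Prss34 at 0.425 to 13.55 against 0.408 to 29.9. Endothelial markers (9 of 9 detected in Vec and CCND2wt, 7 of 9 in CCND2mut) summed to 665 to 739, 1064 to 1110 and 13.5 to 90.5 CPM. Tie1 and Egfl7, which stem cells also express, made up most of it, while the endothelial cadherin Cdh5 was at most 4.01 CPM and Cldn5 at most 0.362 CPM with 0 reads in 5 libraries. Other endothelial genes were higher in CCND2wt than in Vec: Stab2 was at 26.1 to 28.8 against 0.0679 to 3.68 CPM, Kdr at 12.6 to 16.8 against 0.747 to 2.54, Plvap at 9.06 to 10.4 against 2.47 to 3.21, and Sox17 at 1.85 to 2.59 against 0 to 0.192.

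Stromal markers (8, 7 and 6 of 9 detected) summed to 72.3 to 90.8, 19.7 to 22.9 and 35.5 to 37.9 CPM, and Lum had 0 reads in all 9 libraries. Pdgfrb made up most of it in Vec and CCND2wt, and was at 18.5, 20.8 and 28.5 CPM in CCND2mut 1, 2 and 3. The 2 collagen genes of the list went opposite ways. Col1a1 was at 17.7, 16.4 and 3.25 CPM in CCND2mut against 3.50, 0 and 0.449 in Vec. Col1a2 was at 0.0607, 0 and 0 CPM in CCND2mut against 4.71, 0.611 and 0.449 in Vec. Erythroid markers (10 of 10 detected) varied most within a group, with 17170, 145 and 3851 CPM in Vec, 1089 to 1305 in CCND2wt and 35.6 to 302 in CCND2mut. Megakaryocyte markers (7 of 7 detected) summed to 354 to 445 CPM in Vec, 345 to 357 in CCND2wt and 36.7 to 92.5 in CCND2mut. Dendritic cell markers (7, 6 and 6 of 7 detected) were at 127 to 199, 117 to 124 and 34.7 to 48.9 CPM in the same order. Flt3, which is also on a stem cell list below, and Bst2 made up most of that sum. Siglech, Xcr1, Clec9a, Zbtb46 and Cd209a were at most 9.84, 0.304, 4.51, 6.91 and 1.81 CPM. Clec9a and Zbtb46 were highest in CCND2wt. Eosinophil markers (5 of 5 detected) were at 5.09 to 224, 17.3 to 35.5 and 245 to 497 CPM. B cell markers (8 of 8 detected) summed to 45.0 to 304, 21.1 to 24.2 and 5.11 to 15.1 CPM, and T and NK cell markers (8, 8 and 7 of 8 detected) to 5.77 to 19.9, 1.59 to 2.21 and 0.668 to 1.53 CPM.

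Among the surface proteins, Cd34 encodes the sialomucin that marks progenitors in marrow. The gene (ENSMUSG00000016494) spans chr1:194938819-194961279 of mm10 on the plus strand. Cd34 stood at 445, 651 and 565 CPM in Vec 1, 2 and 4, at 595, 582 and 546 CPM in CCND2wt 2, 3 and 4, and at 433, 465 and 148 CPM in CCND2mut 1, 2 and 3. CCND2mut 3 alone was far below the rest, and CCND2mut 2 lay inside the Vec range. The group means were 553 ± 104, 575 ± 25.2 and 349 ± 174 CPM (SD, n = 3 each). Log2 fold changes were 0.05 (SE 0.37) for CCND2wt against Vec, -0.67 (SE 0.37) for CCND2mut against Vec and -0.72 (SE 0.37) for CCND2mut against CCND2wt. None passed the edgeR test (adjusted p = 0.935, 0.162 and 0.144), although CCND2mut and CCND2wt did not overlap. The antisense gene Gm16897 overlaps Cd34 and held at most 3.62% as many reads. The strand setting of the counting is unknown, so that reads of the 2 genes may not be separated.

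The sialomucins closest to Cd34 were both low in CCND2mut. Emcn, which encodes endomucin, had 1 read in the whole CCND2mut group against 307 in Vec, a ratio of 304 with a 95% counting interval of 54.2 to 12100. Podxl, encoding podocalyxin, was at 7.42, 16.9 and 19.9 CPM in Vec, 83.0, 79.5 and 80.1 in CCND2wt, and 6.13, 0.134 and 0.199 in CCND2mut. Against CCND2wt, Podxl in CCND2mut fell by 5.201 on the log2 scale (SE 0.98, edgeR adjusted p = 0.00513), and against Vec it gave -2.74 (SE 0.99, adjusted p = 0.0504). Without CCND2mut 1 these Podxl values were -8.86 (adjusted p = 3.38e-05) and -6.40 (adjusted p = 0.000143).

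Ly6a encodes Sca-1, the lipid-anchored surface antigen by which mouse stem cells are sorted. It (ENSMUSG00000075602) lies at chr15:74994877-74998031 on the minus strand. Ly6a was at 219, 175 and 445 CPM in Vec, 392, 462 and 474 CPM in CCND2wt, and 20.1, 143 and 7.51 CPM in CCND2mut. All CCND2mut libraries were below all others, with CCND2mut 2 close to Vec 2. The highest CCND2mut library was 19.1-fold above the lowest, against 2.55-fold in Vec and 1.21-fold in CCND2wt. The means were 279.5 ± 145, 443 ± 44.5 and 56.9 ± 75.0 CPM (SD, n = 3 each). The log2 fold change of CCND2mut was -2.96 against CCND2wt (SE 0.89, edgeR adjusted p = 0.033) and -2.30 against Vec (SE 0.89, adjusted p = 0.068). Without CCND2mut 2 these values became -5.04 (adjusted p = 0.00076) and -4.36 (adjusted p = 0.0011). The call against CCND2wt was lost without CCND2mut 1 and without any single CCND2wt library. CCND2mut 2 also had the highest mast cell and basophil sum of its group (9436 CPM), and that sum's part in the Ly6a level was not tested. CCND2wt against Vec gave 0.66 (SE 0.89, adjusted p = 0.638).

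Other members of the Ly6 family moved in other directions. Ly6 genes are closely related neighbours, and the sources used here do not say how reads shared between them were counted, so that their values are uncertain. Of 9 relatives, 5 were tested, and against Vec 2 rose and 1 fell in CCND2mut. That is 3 of 5 called where 51.8% of all tested genes were, 24.9% higher and 26.9% lower, so that the count is near the background. Ly6a lies on chromosome 15, whose median log2 fold change in CCND2mut against Vec was 0.66, as given below. The part of that shift in the values of these neighbours was not tested. Ly6c2, the monocyte antigen Ly6C, was at 127, 8.08 and 5.32 CPM in Vec, 2.96, 2.04 and 3.03 in CCND2wt, and 930.2, 1732 and 4208 in CCND2mut. It rose in CCND2mut by 5.61 against Vec (SE 1.08, edgeR adjusted p = 0.00748) and by 9.74 against CCND2wt (SE 1.14, adjusted p = 0.00141) on the log2 scale. Without Vec 1 the value against Vec was 8.42 (adjusted p = 0.000211). Ly6e, a broadly made member, rose by 1.12 against Vec (SE 0.32, adjusted p = 0.0197). Ly6d, a marker of lymphoid progenitors, fell by 2.89 on the same scale (SE 0.90, adjusted p = 0.0308). The Ly6e call was lost without Vec 1 or Vec 2. The Ly6d call was lost without Vec 1 (-1.48, adjusted p = 0.124), CCND2mut 1, CCND2mut 3 or any CCND2wt library. Ly6c1 and the neutrophil antigen gene Ly6g had log2 fold changes of -0.30 and -0.06 against Vec with no call.

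Prom1 encodes prominin-1 (CD133), a membrane protein of protrusions on stem cells and many epithelia. It (ENSMUSG00000029086) spans chr5:43993620-44102032 on the minus strand. Prom1 was at 13.6, 0.815 and 0.256 CPM in Vec, at 0.0529, 0 and 0.110 CPM in CCND2wt, and at 43.9, 3.61 and 0.531 CPM in CCND2mut. Vec 1 and CCND2mut 1 were the highest of their groups by far, and these are the libraries with the highest neutrophil sums, whose part in the Prom1 level was not tested. CCND2mut 1 alone held 723 of the 785 reads of its group. The CCND2wt group held 3 reads, and the 0 in CCND2wt 3 allows up to 0.17 CPM by counting error alone.

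The ratio of Prom1 in CCND2mut to CCND2wt was 308 with a 95% counting interval of 105 to 1500 (edgeR adjusted p = 0.0247). The fitted log2 fold change was 8.01. The call was lost without CCND2mut 1 (5.06, adjusted p = 0.0791), with limma-voom (6.11, adjusted p = 0.158) and without any single CCND2wt library. Vec was 94.1 times CCND2wt (interval 31.8 to 459, adjusted p = 0.0965). For CCND2mut against Vec the log2 fold change was 1.70 (SE 1.55, adjusted p = 0.395) with overlapping groups, and it was -1.25 without CCND2mut 1. The related gene Prom2 was too low to be tested.

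Adgrg1 encodes GPR56, an adhesion G protein coupled receptor carried by stem cells and by many myeloid leukaemias. It (ENSMUSG00000031785) spans chr8:94974751-95014217 on the plus strand. Adgrg1 was at 528, 687 and 578 CPM in Vec, 331, 328 and 291 CPM in CCND2wt, and 181, 206 and 156 CPM in CCND2mut. No library of any group overlapped another group, and the order was Vec, CCND2wt, CCND2mut. The means were 598 ± 81.3, 317 ± 22.1 and 181 ± 25.04 CPM (SD, n = 3 each). Adgrg1 was the gene of the set that passed the test in every comparison. It fell by 0.92 in CCND2wt against Vec (SE 0.15, edgeR adjusted p = 0.00494), fell by 1.72 in CCND2mut against Vec (SE 0.15, adjusted p = 6.66e-05) and fell by 0.81 in CCND2mut against CCND2wt (SE 0.15, adjusted p = 0.0022) on the log2 scale. With the CCND2wt libraries summed to 1 sample, the calls that involve CCND2wt were lost, as they were against a 1.5-fold change.

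Neighbouring receptors of the same subfamily took different courses. Adgrg3, a receptor of granulocytes, was at 529, 823 and 479 CPM in Vec, 283, 322 and 295 in CCND2wt and 670.0, 664 and 515 in CCND2mut. In CCND2wt it fell by 1.03 (SE 0.21, edgeR adjusted p = 0.0135), and CCND2mut against Vec gave 0.01 (SE 0.21, adjusted p = 0.959). Adgrg6, known from myelination of peripheral nerves, was at 11.3, 18.3 and 12.6 CPM in Vec, 105, 100.3 and 98.8 in CCND2wt, and 1.09, 0 and 0 in CCND2mut. In CCND2wt it rose by 2.85 (SE 0.58, adjusted p = 0.0173), and in CCND2mut it fell by 5.18 (SE 0.88, adjusted p = 0.00113), each against Vec on the log2 scale. Without CCND2mut 1, where all Adgrg6 reads of the group lay, the fall kept its call (adjusted p = 2.07e-05) and its fitted size depends on the prior count. The call of Adgrg3 in CCND2wt was lost without CCND2wt 2 or CCND2wt 4, and that of Adgrg6 without Vec 4 or any CCND2wt library.

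The ligand of the set is Angpt1 (ENSMUSG00000022309), at chr15:42424723-42676977 on the minus strand. Angpt1 was at 421, 454 and 438 CPM in Vec, 234, 244 and 223 CPM in CCND2wt, and 23.9, 16.3 and 8.30 CPM in CCND2mut. The groups were fully separate and ran from Vec down to CCND2mut, with little spread in Vec and CCND2wt. Means were 437.5 ± 16.8, 234 ± 10.5 and 16.2 ± 7.78 CPM (SD, n = 3 each). In CCND2mut, Angpt1 fell by 4.76 against Vec (SE 0.30, edgeR adjusted p = 3.92e-05) and fell by 3.85 against CCND2wt (SE 0.30, adjusted p = 7.69e-05) on the log2 scale. CCND2wt against Vec gave -0.91 (SE 0.30, adjusted p = 0.0684), which passed the threshold with DESeq2, with limma-voom and with only those 2 groups in the fit. It also passed without CCND2mut 1, without CCND2mut 3, and without both Vec 1 and CCND2mut 1.

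Chromosome 15 carries both Angpt1 and Ly6a, and the median of its other tested genes was higher in CCND2mut. Leaving out either gene, 435 other tested genes had a mean of at least 5 CPM. Their median log2 fold change in CCND2mut was 0.66 against Vec and 0.70 against CCND2wt. Against the Vec mean, the chromosome's median was 0.66, 0.62 and 0.66 in CCND2mut 1, 2 and 3, and that of all other chromosomes was 0.06, 0.01 and 0.02. Angpt1 and Ly6a thus lay on the opposite side of zero from the median of their chromosome.

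The receptors for angiopoietins were also low in CCND2mut. Tek, which encodes Tie2, was at 24.1, 33.0 and 41.2 CPM in Vec, 191, 203 and 207 in CCND2wt, and 3.40, 0 and 0 in CCND2mut. It fell by 4.80 against Vec (SE 0.99, edgeR adjusted p = 0.00494) and fell by 7.41 against CCND2wt (SE 0.98, adjusted p = 0.000965), while CCND2wt against Vec gave 2.61 (SE 0.81, adjusted p = 0.0656). Without CCND2mut 1, which held all reads of Tek in its group, both calls held (adjusted p = 1.41e-05 and 5.54e-06), and the fitted values of -12.07 and -14.69 depend on the prior count. Tie1, the partner receptor, fell by 2.82 in CCND2mut against Vec (SE 0.75, adjusted p = 0.0183), a call lost without CCND2mut 2 (adjusted p = 0.0545). Angpt2, the second ligand of Tie2, averaged 2.32, 6.31 and 1.75 CPM and rose in CCND2wt by 1.44 (SE 0.37, adjusted p = 0.0316) on the log2 scale, a call lost without Vec 1, Vec 4 or any CCND2wt library. In the CCND2wt libraries, then, Angpt1 was 1.87-fold below its Vec level without a call, beside a called rise of Angpt2.

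Among the transcription factors, Mecom encodes the zinc finger protein EVI1 and its longer MDS1-EVI1 form, needed by long-lived stem cells. It (ENSMUSG00000027684) spans chr3:29951296-30548008 on the minus strand. Mecom was at 4.22, 8.42 and 4.36 CPM in Vec (70, 124 and 68 reads), at 0.0529, 0 and 0.110 CPM in CCND2wt, and at 0.546, 0 and 0 CPM in CCND2mut. Every Vec library was above every other, and the gene was nearly absent from the counts of the other 2 groups. CCND2wt held 3 reads in all and CCND2mut 9, all 9 in CCND2mut 1. A count of 0 allows up to 0.17 CPM in CCND2wt 3 and up to 0.2 and 0.199 CPM in CCND2mut 2 and 3.

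Vec was 102 times CCND2wt for Mecom, with a 95% counting interval of 34.5 to 497 (edgeR adjusted p = 0.00898). That call was lost without CCND2wt 2, without CCND2wt 3 and with the CCND2wt libraries summed, and with a replicate block it missed the threshold (log2 fold change -5.84, adjusted p = 0.0676). CCND2mut against Vec gave a log2 fold change of -4.85 (SE 1.07, adjusted p = 0.00504), and the call held without CCND2mut 1 (adjusted p = 0.000685). That left 0 reads in the group, so that the fitted value of -9.54 depends on the prior count. CCND2mut was 3.53 times CCND2wt (interval 0.881 to 20.3, adjusted p = 0.368), and this direction turned without CCND2mut 1. Prdm16, the close relative of Mecom that stem cells also need, followed the same pattern of counts. It had 114, 73 and 22 reads in Vec, 0 in each CCND2wt library, and 1, 0 and 0 in CCND2mut. It was at least 81.2-fold lower in CCND2wt than in Vec, taking 3 reads over the group as the floor (edgeR adjusted p = 0.00516).

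Hlf encodes a bZIP factor of the PAR family that marks stem cells and keeps them quiescent. It (ENSMUSG00000003949) spans chr11:90336536-90390895 on the minus strand. Hlf was at 182, 209 and 204 CPM in Vec, 305, 278 and 285 CPM in CCND2wt, and 16.3, 2.20 and 0.863 CPM in CCND2mut. The 3 groups did not overlap, with CCND2wt highest and CCND2mut far below, and within CCND2mut the first library stood well above the others. Means were 198 ± 14.6, 289 ± 13.8 and 6.47 ± 8.57 CPM (SD, n = 3 each). In CCND2mut, Hlf fell by 4.93 against Vec (SE 0.79, edgeR adjusted p = 0.00244) and fell by 5.47 against CCND2wt (SE 0.79, adjusted p = 0.00175) on the log2 scale. Without CCND2mut 1 these became -7.01 and -7.56. For CCND2wt against Vec the value was 0.55 (SE 0.76, adjusted p = 0.651), and 0.00742 was the adjusted p when only those 2 groups were fitted, without the wide spread of CCND2mut.

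Relatives of Hlf differed in direction. Dbp and Tef, activators of the same family, were lower in CCND2mut than in Vec, with log2 fold changes of -2.14 (SE 0.18, edgeR adjusted p = 6.66e-05) and -0.57 (SE 0.20, adjusted p = 0.0451). The Tef call was lost without any single library other than CCND2mut 2. Nfil3, a repressor that binds the same DNA sites, was at 16.1, 15.4 and 12.1 CPM in Vec, 7.41, 9.46 and 9.47 in CCND2wt, and 81.6, 221 and 107 in CCND2mut. It rose by 3.23 against Vec (SE 0.34, adjusted p = 0.000233).

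Erg encodes an ETS factor required to keep adult stem cells. It (ENSMUSG00000040732) spans chr16:95359169-95586593 on the minus strand. Erg was at 305, 398 and 378 CPM in Vec, 349, 314 and 328 CPM in CCND2wt, and 187, 100.3 and 111 CPM in CCND2mut. Vec and CCND2wt overlapped, and all 3 CCND2mut libraries were below both. Means were 360.2 ± 49.3, 330.5 ± 17.6 and 133 ± 47.4 CPM (SD, n = 3 each). In CCND2mut, Erg fell by 1.44 against Vec (SE 0.23, edgeR adjusted p = 0.00117) and fell by 1.32 against CCND2wt (SE 0.23, adjusted p = 0.00192) on the log2 scale, and CCND2wt against Vec gave -0.12 (SE 0.23, adjusted p = 0.741). With the CCND2wt libraries summed to 1 sample, the adjusted p against CCND2wt was 0.0535.

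Erg acts with 6 other factors on stem cell enhancers, a group known as the heptad. Of those partners 4 fell and 1 rose in CCND2mut against Vec, and 0 of 6 were called in CCND2wt against Vec, where 51.8% and 18.8% of all tested genes were called. Tal1, a helix-loop-helix factor, was at 259, 138 and 220.0 CPM in Vec, 269, 204 and 270 in CCND2wt, and 41.1, 14.02 and 3.12 in CCND2mut. The Tal1 values of CCND2mut were all below the rest (log2 fold change against Vec -3.40, SE 0.70, edgeR adjusted p = 0.00611). Lmo2, the adaptor that binds Tal1, fell by 2.70 (SE 0.40, adjusted p = 0.00117), Fli1, the closest ETS relative of Erg, fell by 1.11 (SE 0.17, adjusted p = 0.000881), and Runx1 fell by 1.05 (SE 0.20, adjusted p = 0.00266). Reads of Runx1 can come from the AML1-ETO allele as well as the normal allele. Lyl1, named after its value was seen, was the partner that rose, by 0.73 (SE 0.17, adjusted p = 0.00683). Gata2 was at 140, 715 and 287 CPM in CCND2mut, a range that spans the Vec libraries, and was not called. Other ETS genes showed no common direction: against Vec, 3 of 8 tested fell and 2 rose in CCND2mut, which is near the background of 26.9% lower and 24.9% higher.

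Sox4 encodes an HMG box factor of lymphoid and myeloid progenitors that is often raised in leukaemia. It (ENSMUSG00000076431) lies at chr13:28948919-28953713 on the minus strand. Sox4 was at 234, 251 and 145 CPM in Vec, 239.8, 233 and 200 CPM in CCND2wt, and 3.89, 0.200 and 0.0664 CPM in CCND2mut. Vec and CCND2wt overlapped, and CCND2mut was near zero, with 64 reads in CCND2mut 1, 3 in CCND2mut 2 and 1 in CCND2mut 3. Means were 210.0 ± 56.8, 224 ± 21.2 and 1.38 ± 2.17 CPM (SD, n = 3 each). In CCND2mut, Sox4 fell by 7.20 against Vec (SE 0.87, edgeR adjusted p = 0.000634) and fell by 7.30 against CCND2wt (SE 0.86, adjusted p = 0.000631) on the log2 scale, a fitted 147-fold and 157-fold. Without CCND2mut 1 the values were -10.54 and -10.64. CCND2wt against Vec gave 0.09 (SE 0.74, adjusted p = 0.943). Sox12, the other SoxC gene that was tested, went the opposite way: at 17.1, 9.98 and 8.21 CPM in Vec and 38.4, 33.5 and 31.0 in CCND2mut, it rose by 1.54 (SE 0.26, adjusted p = 0.00158).

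Myb encodes the factor that definitive blood formation depends on and that progenitors lose as they mature. It (ENSMUSG00000019982) spans chr10:21124935-21160984 on the minus strand. Myb was at 639, 646 and 661 CPM in Vec, 747, 724 and 739 CPM in CCND2wt, and 387, 186 and 266 CPM in CCND2mut. The groups did not overlap, CCND2wt being slightly above Vec and CCND2mut below both. Means were 649 ± 11.4, 737 ± 11.7 and 279.9 ± 101 CPM (SD, n = 3 each). In CCND2mut, Myb fell by 1.21 against Vec (SE 0.23, edgeR adjusted p = 0.00253) and fell by 1.40 against CCND2wt (SE 0.23, adjusted p = 0.00136) on the log2 scale. CCND2wt against Vec gave 0.18 (SE 0.23, adjusted p = 0.603). The antisense gene Gm26577 overlaps Myb and held at most 1.33% as many reads.

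Partners and targets of Myb did not follow it as a group. Of 12 such genes, 7 rose and 3 fell in CCND2mut against Vec, where 24.9% and 26.9% of all tested genes did. Among the 7, Mpo and Ep300, named after their values were seen, lost their calls without Vec 1 (edgeR adjusted p = 0.0566 and 0.0721). The Mpo call was also lost without CCND2mut 1 (adjusted p = 0.0878). Kit, the stem cell factor receptor, fell with Myb, from 710.0, 763 and 913 CPM in Vec to 66.3, 123 and 56.7 in CCND2mut (log2 fold change -3.28, SE 0.26, edgeR adjusted p = 6.98e-05). Elane, which encodes neutrophil elastase, was at 87.3, 5.70 and 5.19 CPM in Vec and at 1362, 214 and 447 in CCND2mut, and rose by 4.36 (SE 1.06, adjusted p = 0.0165). The rise was 6.93 without Vec 1 (adjusted p = 0.000611) and 3.33 without CCND2mut 1 (adjusted p = 0.0446). Elane was highest in Vec 1 and CCND2mut 1, the libraries with the highest neutrophil sums, whose part was not tested. Bcl2, a survival gene, rose by 1.54 (SE 0.23, adjusted p = 0.000893), and Cebpb, a myeloid factor, gave 0.77 (SE 0.36, adjusted p = 0.111). The paralogs Mybl1 and Mybl2, of which Mybl2 serves dividing cells, rose in CCND2mut against Vec by 1.99 (SE 0.45, adjusted p = 0.00646) and 2.10 (SE 0.36, adjusted p = 0.00207). Both also rose in CCND2wt, by 2.83 (SE 0.44, adjusted p = 0.00559) and 1.34 (SE 0.36, adjusted p = 0.0382), of which the Mybl2 call was lost without Vec 2, Vec 4 or any CCND2wt library.

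Across the set, 8 of the 10 genes had CCND2mut libraries that did not overlap Vec, all 8 lower, where 56.7% of all tested genes were separate, 27.4% higher and 29.2% lower. Between CCND2mut and CCND2wt, 9 of 10 were separate, 8 lower and 1 higher, against a background of 63.1% (30.9% higher and 32.2% lower). Between CCND2wt and Vec, 6 of 10 were separate, 2 higher (Hlf and Myb) and 4 lower (Mecom, Angpt1, Adgrg1 and Prom1), against 48.3% (24.6% higher and 23.7% lower).

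The libraries of a group did not rank alike. CCND2mut 1 was the highest of its group for 7 genes and the lowest for 0, and CCND2mut 3 was the lowest for 7. In Vec, library 2 was the highest for 7 genes and library 1 the lowest for 7. The median coefficient of variation of the 10 genes was 16.2% in Vec, 6.15% in CCND2wt and 91.0% in CCND2mut, where the medians of all tested genes were 20.3%, 8.47% and 22.7%. In CCND2mut it ran from 13.8% for Adgrg1 to 173% for Mecom. Leaving out CCND2mut 1 lowered the fitted values of Hlf, Sox4 and Mecom against Vec and changed the sign of Prom1.

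**Figure D3:**
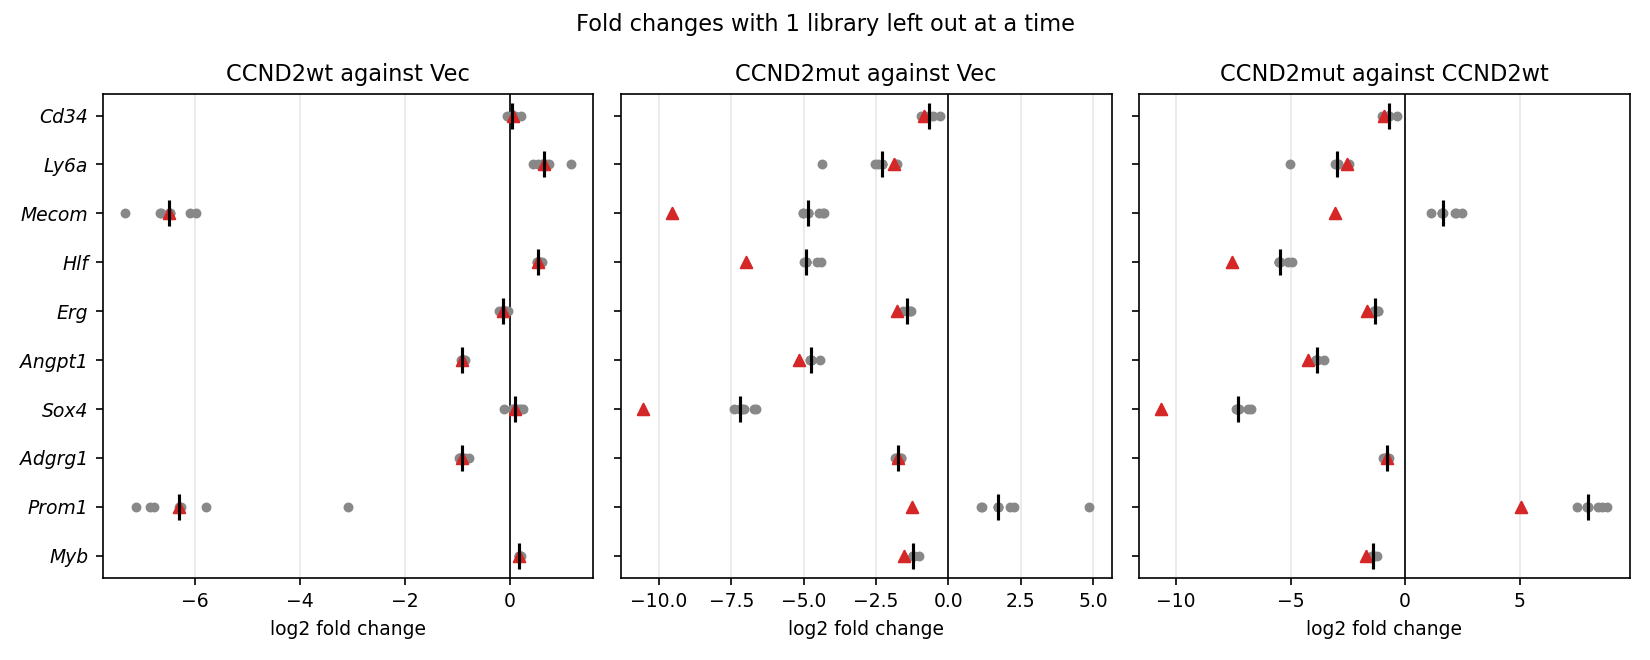
Log2 fold change of each gene in the 3 comparisons when 1 of the 9 libraries is left out. Grey points are the fits without 1 library other than CCND2mut 1, the red triangle is the fit without CCND2mut 1, and the black bar is the fit with all 9. The triangle lies at -10.54 for Sox4 and -7.01 for Hlf in CCND2mut against Vec, where the bars lie at -7.20 and -4.93.

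Compared per kilobase of the gene length given in the deposited table, the order of levels differed between groups. In Vec, Ly6a led with 232 CPM per kilobase. Adgrg1 and Erg followed at 110.3 and 104, then Angpt1, Cd34 and Myb at 84.1, 75.9 and 72.6, where neighbours in each of these runs overlapped. Sox4 and Hlf came next at 43.8 and 29.6, overlapping each other, and Prom1 and Mecom were last at 0.683 and 0.456 CPM per kilobase. In CCND2wt, Ly6a again led at 367, and Angpt1 stood seventh at 44.9 CPM per kilobase, beside Sox4 and Hlf at 46.7 and 43.3. In CCND2mut, Cd34, Ly6a, Erg, Adgrg1 and Myb held the top at 31.3 to 47.8 CPM per kilobase, each overlapping its neighbour. Below a gap, Angpt1, Prom1, Hlf, Sox4 and Mecom were at 0.0147 to 3.10 CPM per kilobase in CCND2mut. In Vec, by contrast, Angpt1, Sox4 and Hlf lay at 29.6 to 84.1 CPM per kilobase.

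Other stem cell genes, outside the 10, were read from lists written for this description. Of 20 surface and signalling genes, 18 were tested. Against Vec, 17 of the 18 fell in CCND2mut and 0 rose (median log2 fold change -3.96). Of all tested genes, 26.9% were called lower there and 24.9% higher. The exception was Cdkn1c, a cell cycle inhibitor named after its value was seen (0.56, edgeR adjusted p = 0.525). Among the 17, Ctnnal1 (-0.71, adjusted p = 0.03) lost its call without any single library other than Vec 4. Against CCND2wt 16 of 18 fell, where 23.8% of all tested genes were called lower and 23.2% higher. Gcnt2, a glycosyltransferase, was at 482, 599.6 and 623 CPM in Vec, 349.7, 363 and 311 in CCND2wt, and 35.4, 27.3 and 31.1 in CCND2mut, and the groups were fully separate. Against Vec its level in CCND2mut fell by 4.18 (SE 0.14, edgeR adjusted p = 3.76e-06) on the log2 scale. Cd27, a receptor of the TNF family on progenitors and lymphocytes, went from 63.3, 88.1 and 72.3 CPM in Vec to 2.73, 1.74 and 1.66 in CCND2mut (log2 fold change -5.18, SE 0.21, adjusted p = 5.88e-06).

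CCND2wt against Vec was mixed for the same surface genes, with 2 of 18 higher and 4 lower (median -0.08), against 9.71% and 9.05% of all tested genes. Ctnnal1, which encodes alpha-catulin and marks stem cells in mouse marrow, was at 3.68, 4.41 and 3.01 CPM in Vec and 12.5, 12.6 and 10.6 in CCND2wt (log2 fold change 1.68, SE 0.22, edgeR adjusted p = 0.00276). Cd27 fell by 2.72 (SE 0.19, adjusted p = 0.000244) and Gcnt2 fell by 0.74 (SE 0.14, adjusted p = 0.0109). The other calls were Esam, an adhesion molecule, at 2.38 (SE 0.57, adjusted p = 0.0282), Flt3, a cytokine receptor of lymphoid-primed progenitors, at -1.64 (SE 0.38, adjusted p = 0.0237), and Ifitm1, an interferon-induced membrane protein, at -3.68 (SE 0.41, adjusted p = 0.0018). These 3 are named after their values were seen. Without any single CCND2wt library the calls of Esam and Flt3 were lost, as was that of Esam without Vec 2 or Vec 4, that of Flt3 without Vec 2, and that of Gcnt2 without CCND2wt 2 or CCND2wt 4.

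Of 28 other transcription and RNA-binding factors, 24 were tested. In CCND2mut against Vec 17 fell and 2 rose (median -1.67), and against CCND2wt 14 fell and 1 rose (median -0.97). Of all tested genes, 26.9% were called lower and 24.9% higher against Vec, and 23.8% and 23.2% against CCND2wt. Hoxa7 and Hoxa9, homeobox genes of early progenitors, had 4 reads each in the whole CCND2mut group against 443 and 253 in Vec. Their log2 fold changes were -6.69 (SE 0.90, edgeR adjusted p = 0.000188) and -5.87 (SE 0.75, adjusted p = 0.000196). Without CCND2mut 1 both calls held (adjusted p = 5.05e-05 and 0.000184), with 0 and 1 reads left in the group, so that the fitted values depend on the prior count. Ldb1, the scaffold of the Tal1 and Lmo2 complex, was at 529, 685 and 671 CPM in Vec, 446, 434 and 461 in CCND2wt, and 209, 212 and 192 in CCND2mut. Against Vec it fell by 1.62 in CCND2mut (SE 0.12, edgeR adjusted p = 4.36e-05) and fell by 0.49 in CCND2wt (SE 0.12, adjusted p = 0.0274).

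In CCND2wt against Vec, 2 of those 24 factors rose and 4 fell (median -0.28), against 9.71% and 9.05% of all tested genes. Bmi1, a Polycomb protein of self-renewal, was at 81.1, 76.0 and 87.1 CPM in Vec, 169, 163 and 165 in CCND2wt, and 70.7, 64.0 and 74.5 in CCND2mut. It rose in CCND2wt by 1.02 (SE 0.10, edgeR adjusted p = 0.000768) and was not called in CCND2mut against Vec (log2 fold change -0.22, SE 0.10, adjusted p = 0.0849). Gfi1, a repressor of myeloid genes named after its value was seen, rose in CCND2wt by 0.78 (SE 0.19, adjusted p = 0.0249) and in CCND2mut by 0.93 (SE 0.19, adjusted p = 0.00397). Besides Ldb1 and Prdm16, the factors that fell in CCND2wt were the homeobox genes Hoxb4 and Nkx2-3, named after their values were seen. Hoxb4 had 235 reads in Vec and 1 in CCND2wt, and Nkx2-3 had 412 and 0. Leaving out any CCND2wt library, Vec 2 or Vec 4 ended the CCND2wt calls of Ldb1 and Gfi1, leaving out CCND2wt 4 ended that of Hoxb4, and leaving out CCND2wt 2 or CCND2wt 4 ended that of Nkx2-3.

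**Figure D4:**
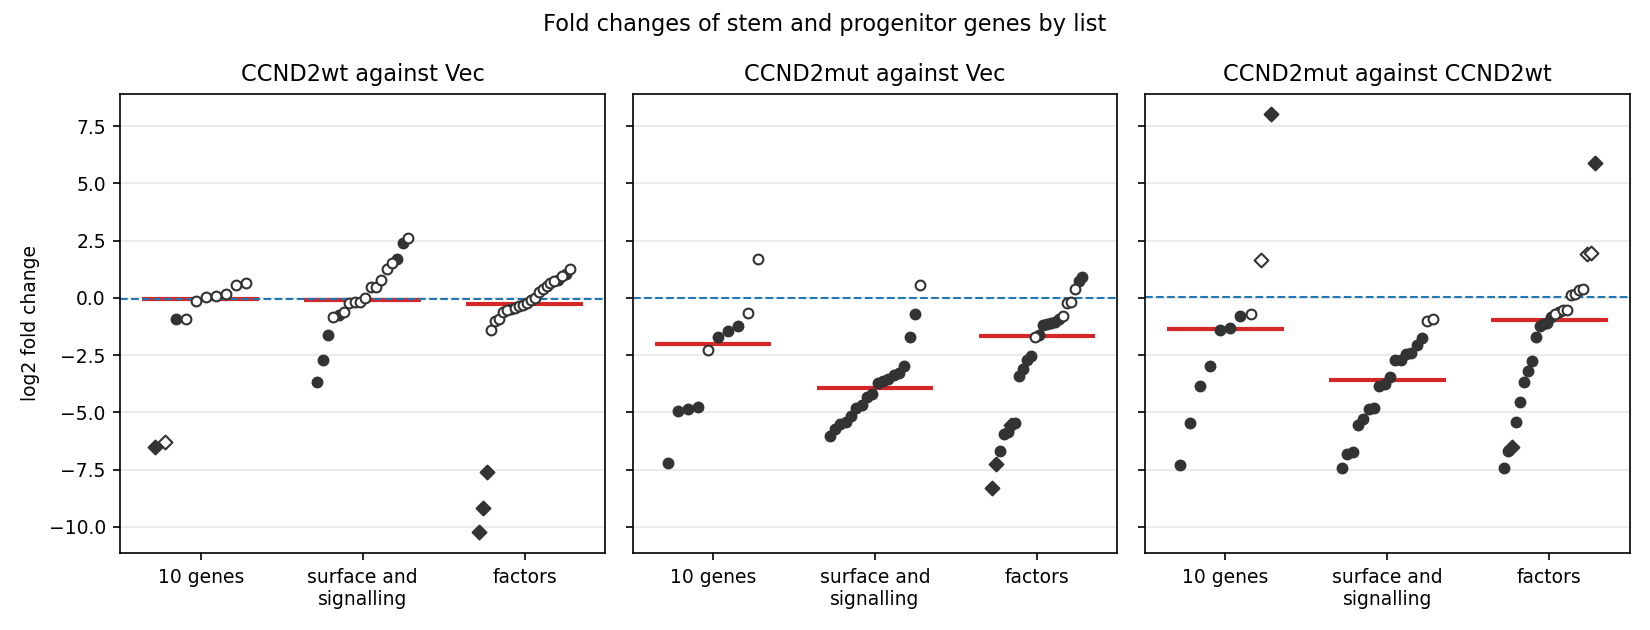
Log2 fold change of the 10 genes and of the tested genes of the 2 other stem cell lists, in the 3 comparisons. Filled points passed an edgeR adjusted p of 0.05 and open points did not, diamonds mark fits with a group at 3 or fewer reads, the red bar is the median of a list and the dashed blue line the median of all tested genes. Medians lie near the dashed line for CCND2wt against Vec and below it for both comparisons of CCND2mut.

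Patterns over the 9 libraries were compared by the root mean square difference of log2(CPM + 1), each gene centred on its own mean, among 10244 protein-coding genes. Within the set, Erg and Myb were the closest pair (0.179), and Sox4 and Prom1 the farthest apart (4.31). The gene nearest to Adgrg1 was Slc50a1, a sugar transporter (0.119), with means of 73.0, 42.5 and 24.3 CPM in Vec, CCND2wt and CCND2mut. The nearest to Erg was Sugp2 (0.121), and the nearest to Myb was Trim21 (0.144). Angpt1 was nearest to Fam189b (0.161), whose means were 738, 353 and 31.0 CPM, and Cd34 to Sema4c (0.239). The genes with a wide spread had looser neighbours. Hlf was nearest to Rab27b (0.319), a secretion GTPase at 107, 108 and 2.28 CPM, and Sox4 to Ifi203 (0.327) and then to Dntt (0.382), the lymphoid terminal transferase, at 302, 242 and 1.90 CPM. Prom1 was nearest to Siglece (0.345) and Fpr1 (0.503), receptors of myeloid cells, with Fpr1 at 5.34, 0.145 and 9.57 CPM. Mecom was nearest to Ryr1 (0.402) and Ly6a to Gcsam (0.469).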

How the data were processed

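Gene expression was measured by RNA sequencing in 9 libraries of bone marrow cells, 3 in each of 3 groups, joined to groups by their titles, with 0 count columns left over. The authors deposited raw read counts per gene, not normalized, together with gene positions and lengths. TRIzol was used to extract total RNA, and an NEBNext Ultra kit to make libraries, per the labels' protocols. Per the submitters' processing notes, CASAVA 1.8, fastp, HISAT2 2.0.5, featureCounts 1.5.0-p3 and DESeq2 1.20.0 were used with mm10. The sources used here do not give the annotation release, the strand setting or the treatment of reads with several matches.

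Of 54532 genes, 30980 had a read and 15660 passed filterByExpr (minimum count 10). All 9 libraries were fitted in 1 edgeR 4.0.16 quasi-likelihood model (R 4.3.3, limma 3.58.1, robust, TMM scaling, 6 residual degrees of freedom, median biological coefficient of variation 0.246), with Benjamini-Hochberg adjustment over all tested genes and a threshold of 0.05. Levels are TMM-scaled CPM. Standard errors come from the fitted model. Where a group held 1 to 3 reads, the ratio has an exact 95% counting interval, and for 0 reads a floor of 3 counts, both covering counting error only. The fit was run on simulated data with the same spread in all 3 groups, which does not cover the wider spread of the 10 genes in CCND2mut. The genes and lists were chosen with earlier results of these data known. Named were all 10 genes, up to 4 genes of each list by smallest adjusted p, tested family relatives, and up to 2 nearest patterns per gene (mean of at least 5 CPM, 1 added before log2). Alternatives were RLE scaling, DESeq2 1.42.0, limma-voom, other filters, a test against a 1.5-fold change, fits of 2 groups, a replicate block, removed haemoglobin, immunoglobulin and mitochondrial genes, CCND2wt libraries summed, and libraries left out. No promoter or protein sequence was used here.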

Additional observations from a re-analysis of the deposited data

How the results depend on the processing

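Over 20 alternative settings, 550 of 594 fold changes of the 10 genes kept their direction and their side of the threshold, 26 lost a call, 12 gained one and 6 changed sign. The 7 falls in CCND2mut against Vec held in every setting, except that DESeq2 gave no adjusted p for Hlf. In CCND2wt against Vec, the 2 calls among the 10 genes became 4 with DESeq2 and 4 with only the 2 groups fitted, 1 against a 1.5-fold change, 0 with the CCND2wt libraries summed, and 1 to 3 with 1 library left out. The 6 calls among surface genes became 10 with 2 groups, 3 against a 1.5-fold change, 0 with CCND2wt summed and 3 to 9 with 1 library left out, and the 6 among factors became 11, 4, 0 and 2 to 10, and 14 without Vec 1 and CCND2mut 1. Calls among all genes of that comparison moved as well. The 2938 of 15660 became 4164 of 30980 with DESeq2, 4319 of 14834 with 2 groups and 1027 of 15660 against a 1.5-fold change. They became 39 of 17735 with CCND2wt summed and 4470 of 16082 without Vec 1 and CCND2mut 1. With 1 library left out they ran from 1019 of 16415 to 3817 of 16316. In CCND2mut against CCND2wt, summing the CCND2wt libraries left 4 calls of 8 among the 10 genes and 8 of 15 among factors. Among all genes it left 2378 of 17735, where the main fit called 7360 of 15660. Summing leaves fewer samples to estimate the spread; otherwise the cause was not tested.

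Signs turned for small values. With 1 library left out, CCND2wt against Vec gave -0.053 to 0.209 for Cd34, -0.111 to 0.264 for Sox4 and a median of -0.184 to 0.058 for the surface genes, below zero without Vec 1 (Cd34) or Vec 4 (Sox4) and above it without Vec 2 (surface genes). Prom1 in CCND2mut against Vec ran from -1.247 without CCND2mut 1 to 4.873 without Vec 1. Mecom in CCND2mut against CCND2wt ran from -3.038 without CCND2mut 1 to 2.482 without CCND2wt 4. Without both Vec 1 and CCND2mut 1, Cd34 was -0.054 in CCND2wt against Vec and Mecom -3.045 in CCND2mut against CCND2wt.

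The labels share replicate numbers but do not say that a number marks a shared animal or day, and each comparison shares only 2. Deviations of same-numbered libraries correlated at -0.06 to 0.14, so that pairing was not established. With a replicate block, CCND2wt against Vec had 1 call among the 10 genes, losing Mecom (-5.84). It had 3 calls among surface genes (median 0.32) and 4 among factors. CCND2mut against Vec kept its 7 calls and gained Prom1 (2.03), and CCND2mut against CCND2wt lost Ly6a. Of all 15660 tested genes, 1636, 6751 and 6045 were called with the block in the same order, against 2938, 8119 and 7360 without it.

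Depth limits Mecom and Prom1, whose groups held as few as 3 reads.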
